A study of Mus musculus with 2 samples.

Results

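The genes described here are 10 members of the fibroblast growth factor (FGF) pathway, chosen by symbol among the 27998 genes of the count tables. They comprise the ligands *Fgf2*, *Fgf7*, *Fgf10* and *Fgf18*, the receptors *Fgfr1*, *Fgfr2* and *Fgfr3*, and the feedback inhibitors *Spry1*, *Spry2* and *Spry4*, and all 10 were found. FGF ligands are secreted proteins that bind receptor tyrosine kinases together with heparan sulfate at the cell surface, and the receptors signal mainly through the Ras and MAP kinase cascade. Sprouty proteins are induced by this cascade and dampen it in turn. In skin, FGF7 and FGF10 are made by dermal cells and signal to an epithelial form of FGFR2, and FGF10 is a known product of the dermal papilla (DP), the dermal niche that instructs the hair follicle.

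Single-cell transcripts were counted in 1 library of control mice (*SM22rtTA; tetO-Cre; R26-Tomato*) and 1 library of *SM22-SmoM2* mice (*SM22rtTA; tetO-Cre; R26-SmoM2/Tomato*), from sorted Tomato+ cells of the dermis of small skin wounds. All mice were 4 to 5 weeks old and were fed chow containing doxycycline (20 g/kg) from day 1 after wounding. Tissue was taken 3 days after the wounds had fully re-epithelialized. Doxycycline turns on Cre in cells in which the *SM22α* (*Tagln*) promoter is active. Cre then releases the red fluorescent protein Tomato in both groups, and the *R26-SmoM2* allele adds SmoM2, a Smoothened protein that keeps Hedgehog (Hh) signaling on without ligand. Each library pooled wounds of several mice, so there is no replicate check and no test was run. Ranges after values are 95% intervals that cover counting error only.

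The libraries held 2856 control cells and 1792 *SM22-SmoM2* cells after filtering, with medians of 8607.5 and 8837.5 unique molecular identifiers (UMIs) per cell. Clusters were named by marker genes and gave 1089 and 1098 fibroblast-like cells, 678 and 294 Schwann-like cells, 609 and 226 endothelial-like cells, and 274 and 94 mural-like (vascular muscle) cells in the control and *SM22-SmoM2* libraries. All 6 fibroblast markers were above 10 CPM (UMIs of a gene scaled to 1000000 UMIs of the class) in the fibroblast-like cells of both libraries. The summed markers of mural, endothelial, Schwann, immune and keratinocyte cells lay between 15.7 and 83.8 CPM in these cells, and 1 immune marker was at 0 in the control library. Among cells with a readable sex, the male share was 66.6% in control and 82.3% in *SM22-SmoM2* wounds. *Ptch1*, a target gene of Hh signaling, had 172 UMIs (12.2 CPM) in control cells and 1835 UMIs (147.1 CPM) in *SM22-SmoM2* fibroblast-like cells, a log2 ratio of 3.59 (3.37 to 3.83).

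In the fibroblast-like cells, 6 of the 10 genes were over 1.5-fold higher in the *SM22-SmoM2* library, namely *Fgf10*, *Fgfr2*, *Fgfr3*, *Spry1*, *Spry2* and *Spry4*. *Fgf18* was over 1.5-fold lower, and *Fgf2*, *Fgf7* and *Fgfr1* stayed within that limit. Of the 11523 genes with at least 50 UMIs over both libraries, 11.9% were over 1.5-fold higher and 12.3% over 1.5-fold lower. The median log2 ratio of the 10 genes was 1.09, beside a median of -0.06 over all those genes. The 10 genes were chosen with earlier results of these data known. Setting them against all genes, here and below, is therefore a description only. The summed level of 8 immediate early genes (*Fos*, *Fosb*, *Jun*, *Junb*, *Egr1*, *Ier2*, *Atf3* and *Dusp1*), which tissue digestion also raises, was higher as well, with 3223 CPM in control cells and 5413 CPM in *SM22-SmoM2* cells (log2 ratio 0.75, 0.73 to 0.77). The part of this difference in the Sprouty values was not tested. When every cell was thinned to 1500 UMIs, 5 of the 10 genes still had 50 UMIs, and 2 of them were past the limit, *Fgfr2* at 1.13 and *Spry1* at 1.83, with *Spry2* just inside it at 0.57. The share of all genes past the limit was not computed for thinned cells, so this count has no background beside it.

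The start regions of 4 of the genes that were higher are shown to compare their base composition. They are the 250 bases before the RefSeq start site (GRCm38.p6), written 5′ to 3′ on the strand of the gene, with CpG dinucleotides in capitals.
*Fgf10*, chr13:118714449-118714698, plus strand: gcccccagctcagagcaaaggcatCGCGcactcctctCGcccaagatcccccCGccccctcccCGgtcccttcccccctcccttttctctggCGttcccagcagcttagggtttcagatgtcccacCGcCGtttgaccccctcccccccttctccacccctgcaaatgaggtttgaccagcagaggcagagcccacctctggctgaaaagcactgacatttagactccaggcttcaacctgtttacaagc
*Fgfr2*, chr7:130266809-130267058, minus strand: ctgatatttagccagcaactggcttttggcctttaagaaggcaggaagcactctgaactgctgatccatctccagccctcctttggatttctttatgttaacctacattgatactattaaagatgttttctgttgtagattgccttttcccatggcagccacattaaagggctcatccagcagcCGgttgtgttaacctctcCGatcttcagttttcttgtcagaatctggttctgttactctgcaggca
*Spry1*, chr3:37639697-37639946, plus strand: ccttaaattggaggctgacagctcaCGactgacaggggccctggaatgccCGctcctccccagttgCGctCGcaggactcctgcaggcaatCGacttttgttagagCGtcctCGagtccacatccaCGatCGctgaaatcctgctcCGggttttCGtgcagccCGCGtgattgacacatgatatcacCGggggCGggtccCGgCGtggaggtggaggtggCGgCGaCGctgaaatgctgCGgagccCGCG
*Spry2*, chr14:105896820-105897069, minus strand: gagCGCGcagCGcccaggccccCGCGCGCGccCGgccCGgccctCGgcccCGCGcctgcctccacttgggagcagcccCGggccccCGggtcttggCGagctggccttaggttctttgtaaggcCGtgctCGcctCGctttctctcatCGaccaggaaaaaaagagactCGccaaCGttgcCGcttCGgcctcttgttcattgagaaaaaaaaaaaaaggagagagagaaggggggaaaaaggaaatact

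The *Spry1* and *Spry2* windows had the same composition, with 23 CpGs and 62.4% G and C each. The *Fgf10* window was nearly as rich in G and C (61.2%) but held 8 CpGs. The *Fgfr2* window held 2 CpGs at 44.0% G and C. Over all 32851 windows of 27025 genes, the median was 6 CpGs and the quartiles were 2 and 16. The *Fgf10* and *Fgfr2* windows lie within the longer GENCODE models of these genes and contain no exon bases. Windows of 8 of the 10 genes were searched on both strands for the GLI consensus GACCACCCA (found in 0.225% of all windows), the AP-1 consensus TGANTCA (6.75%) and the ETS core CCGGAAGT (2.88%). None of these letters was found in the 9 windows of the 8 genes, which says only that they are not in these 250 bases.

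The 4 ligands differed in the lineage that held their transcripts. *Fgf7*, a growth factor for keratinocytes, lies on chromosome 2 (126034658 to 126091185, GRCm38) and is overlapped on the other strand by *Fam227b*. It had 17.4 CPM (15.3 to 19.8) in control cells and 22.8 CPM (20.2 to 25.6) in *SM22-SmoM2* fibroblast-like cells, which held 91.8% and 94.4% of all *Fgf7* UMIs. In Schwann-like cells *Fgf7* was at 2.77 and 5.95 CPM. The gene was thus mainly a fibroblast transcript in both libraries, and its ratio between libraries in fibroblast-like cells was 0.38 (0.13 to 0.64) on the log2 scale, inside the 1.5-fold limit.

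*Fgf10*, on chromosome 13 (118669791 to 118792115), had 13 UMIs in control and 94 UMIs in *SM22-SmoM2* fibroblast-like cells, from 13 of 1089 cells and 81 of 1098 cells. These counts correspond to 0.921 CPM (0.491 to 1.58) and 7.53 CPM (6.09 to 9.22), an 8.18-fold difference (4.56 to 15.9) and a log2 ratio of 3.03 (2.19 to 3.99). It was 1.1 (-0.39 to 2.79) in thinned cells and 4.06 (2.64 to 5.97) in male cells alone. Of the *Fgf10* UMIs of the *SM22-SmoM2* library, 97.9% came from fibroblast-like cells. Endothelial-like cells had no *Fgf10* UMI in either library, which allows up to 3 UMIs, or 0.450 CPM in control cells and 1.68 CPM in *SM22-SmoM2* cells. Schwann-like cells had 1 and 2 *Fgf10* UMIs. The share of fibroblast-like cells with an *Fgf10* UMI was 1.19% in control and 7.38% in *SM22-SmoM2* cells, beside 0.148% and 0.680% of Schwann-like cells, whose median depth was lower (5959.5 and 5545.5 UMIs, against 12475 and 10947.5 UMIs).

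*Fgf18*, a ligand with roles in skeletal growth and in the hair cycle, lies on chromosome 11 (33117430 to 33147400). It had 127 UMIs (9.0 CPM, 7.50 to 10.7) in control cells and 69 UMIs (5.53 CPM, 4.30 to 7.0) in *SM22-SmoM2* fibroblast-like cells, a log2 ratio of -0.70 (-1.15 to -0.27). It was the 1 gene among the 10 that was lower past the limit, and with the mean of per-cell CPM its ratio was -0.20, inside it. *Fgf2*, on chromosome 3 (37348346 to 37410108) and overlapped on the other strand by *Nudt6* and *Fgf2os*, was instead highest in Schwann-like cells. There it had 34.9 CPM (29.8 to 40.7) in control cells and 25.8 CPM (19.2 to 33.8) in *SM22-SmoM2* cells, while fibroblast-like cells had 4.54 and 3.69 CPM. The ratio of *Fgf2* between libraries was -0.30 (-0.88 to 0.27) in fibroblast-like cells and -0.44 (-0.92 to 0.02) in Schwann-like cells, and both intervals held equal levels.

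Among the receptors, *Fgfr1*, the main FGF receptor of mesenchymal cells, lies on chromosome 8 (25513654 to 25575718). Fibroblast-like cells had 2828 *Fgfr1* UMIs (200.4 CPM, 193.1 to 208.0) in control cells and 2553 UMIs (204.6 CPM, 196.7 to 212.7) in the *SM22-SmoM2* library. Over all fibroblast-like cells, with a log2 ratio of 0.03 (-0.05 to 0.11), *Fgfr1* was the gene of the 10 that differed least between the libraries. Within the groups of these cells that both libraries shared, described below, *Fgfr1* was lower in *SM22-SmoM2* cells but inside the 1.5-fold limit. Its level in Schwann-like cells was 56.6 and 47.1 CPM, in endothelial-like cells 59.1 and 47.1 CPM, and in mural-like cells 26.1 and 16.8 CPM.

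*Fgfr2*, the receptor of FGF7 and FGF10, was higher in *SM22-SmoM2* fibroblast-like cells, with 143 UMIs (10.1 CPM, 8.54 to 11.9) in control cells and 296 UMIs (23.7 CPM, 21.1 to 26.6) in *SM22-SmoM2* cells. The difference was 2.34-fold (log2 ratio 1.23, 0.93 to 1.53). The 16 keratinocyte-like cells of the control library had 62.6 CPM (37.7 to 97.8), which was above the fibroblast-like level, and mural-like cells had no *Fgfr2* UMI in control and 1 in the *SM22-SmoM2* library. The GENCODE model of *Fgfr2* runs on chromosome 7 from 130162451 to 133123350 across other genes such as *Ate1*, and 3′ counts cannot tell its epithelial from its mesenchymal form.

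*Fgfr3*, on chromosome 5 (33721674 to 33737068), was mainly found outside the fibroblast-like cells in control wounds. Of its control UMIs, 21.3% were in fibroblast-like cells and 55.7% in endothelial-like cells, where it had 5.10 CPM (3.53 to 7.13). In the *SM22-SmoM2* library, 82.3% of its UMIs were in fibroblast-like cells. Their level was 0.921 CPM (13 UMIs) in control wounds and 4.09 CPM (51 UMIs) with SmoM2, a log2 ratio of 2.15 (1.25 to 3.15).

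The Sprouty genes had their highest levels outside the fibroblast-like cells. *Spry2*, on chromosome 14 (105891947 to 105896819), had 322.9 CPM (306.9 to 339.6) in control cells and 399.4 CPM (372.3 to 427.9) in *SM22-SmoM2* Schwann-like cells. The next level was that of mural-like cells, with 89.9 and 162.7 CPM, and endothelial-like cells had 37.8 and 36.4 CPM. In fibroblast-like cells *Spry2* had 738 UMIs (52.3 CPM, 48.6 to 56.2) in control cells and 1268 UMIs (101.6 CPM, 96.1 to 107.4) in the *SM22-SmoM2* library (log2 ratio 0.96, 0.83 to 1.09). *Spry2* was thus below the Schwann-like level in both libraries, while the share of its UMIs held by fibroblast-like cells was 25.8% in control and 55.3% in the *SM22-SmoM2* library.

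*Spry1*, on chromosome 3 (37639947 to 37644598), and *Spry4*, on chromosome 18, were highest in mural-like cells. *Spry1* had 137.7 CPM (121.4 to 155.5) in control cells and 129.1 CPM (100.4 to 163.3) in *SM22-SmoM2* mural-like cells. *Spry4* had 54.2 CPM in the mural-like cells of both libraries (44.2 to 65.8 and 36.3 to 77.9). Endothelial-like cells came next for both genes, with 52.2 and 57.8 CPM of *Spry1* and 28.7 and 29.2 CPM of *Spry4*.

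In fibroblast-like cells *Spry1* had 201 UMIs (14.2 CPM, 12.3 to 16.4) in control cells and 429 UMIs (34.4 CPM, 31.2 to 37.8) in the *SM22-SmoM2* library (log2 ratio 1.27, 1.03 to 1.52). *Spry4* had 36 UMIs (2.55 CPM) and 82 UMIs (6.57 CPM), a log2 ratio of 1.36 (0.78 to 1.97), which was -0.012 (-2.13 to 2.11) in thinned cells. Mural-like cells showed a higher *Spry2* level in the *SM22-SmoM2* library (log2 ratio 0.86, 0.47 to 1.24). Their log2 ratios of *Spry1* and *Spry4* were -0.09 (-0.50 to 0.29) and 0.00 (-0.65 to 0.61). The summed immediate early genes were at 0.05 (-0.01 to 0.11) in mural-like cells, and their part in the *Spry2* value was not tested.

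**Figure D1:**
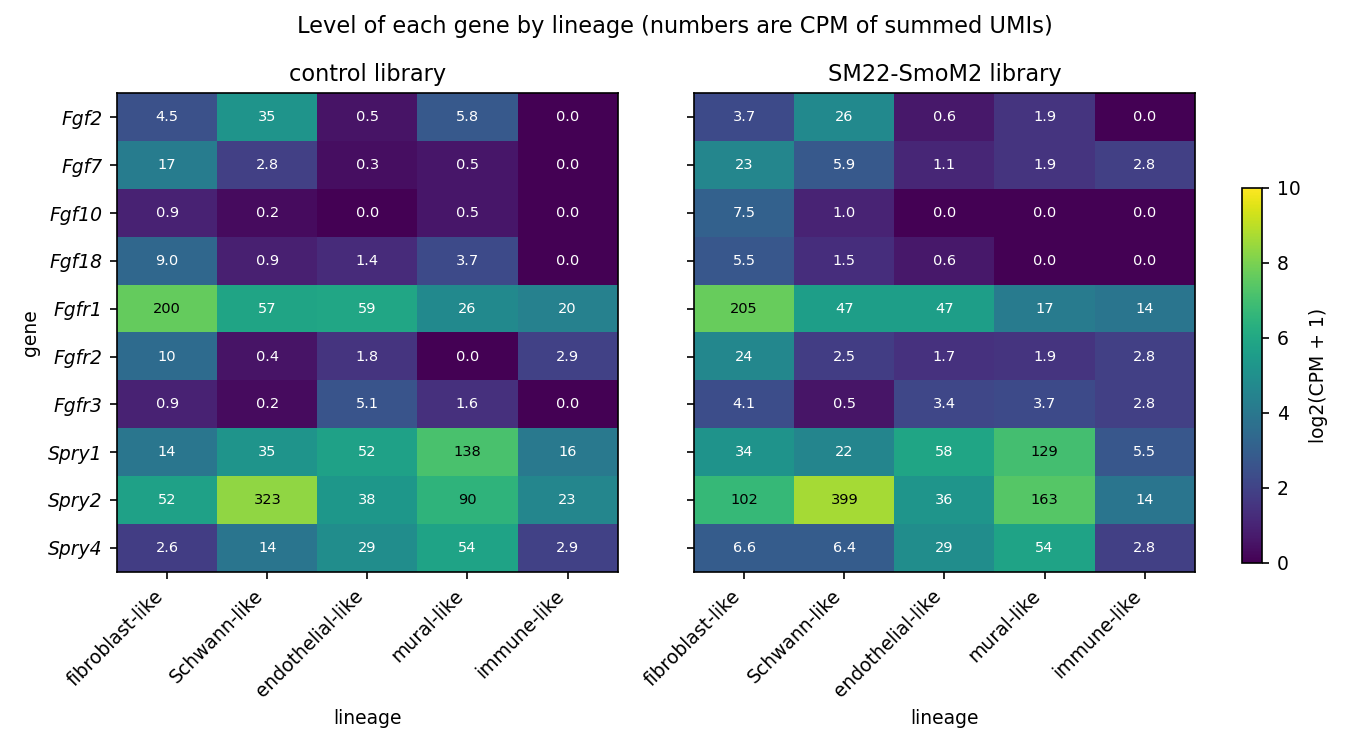
Level of each of the 10 genes (CPM) by lineage in the control and the *SM22-SmoM2* library. *Fgf7*, *Fgf10*, *Fgf18*, *Fgfr1* and *Fgfr2* are mainly fibroblast transcripts in the *SM22-SmoM2* library, *Fgf2* and *Spry2* are highest in Schwann-like cells (34.9 and 322.9 CPM in control), and *Spry1* and *Spry4* in mural-like cells (137.7 and 54.2 CPM).

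Summed by role over fibroblast-like cells, the ligands had 31.9 CPM in control cells and 39.5 CPM in *SM22-SmoM2* cells (log2 ratio 0.31, 0.12 to 0.50), and the receptors, most of them *Fgfr1* UMIs, 211.5 and 232.4 CPM (0.14, 0.06 to 0.21). The 3 Sprouty genes together had 69.1 and 142.6 CPM, a log2 ratio of 1.04 (0.93 to 1.16). The share of all Sprouty UMIs found in fibroblast-like cells was 21.8% in control and 55.4% in the *SM22-SmoM2* library. All UMIs of these libraries were to 46.9% and 70.0% from fibroblast-like cells, a difference that all these shares carry.

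**Figure D2:**
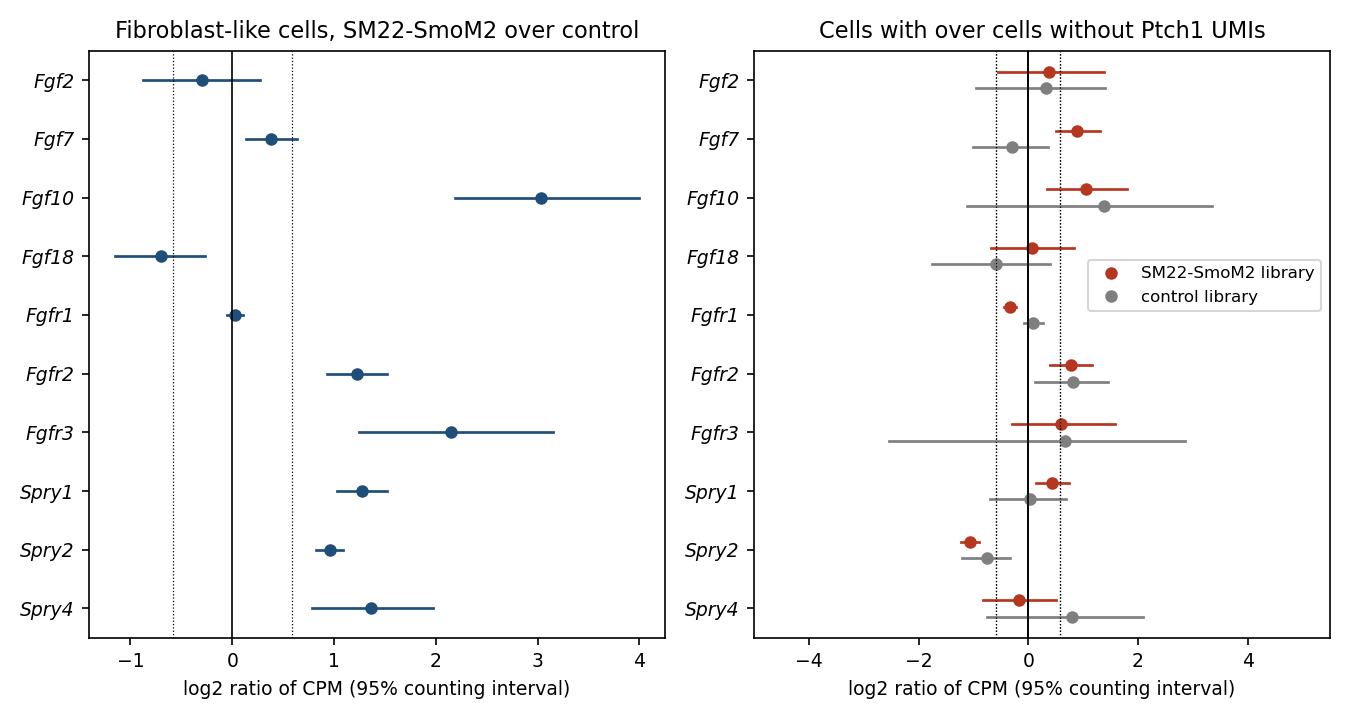
Log2 ratios of CPM for the 10 genes in fibroblast-like cells, for *SM22-SmoM2* over control and for cells with over cells without *Ptch1* UMIs, with 95% counting intervals and dotted lines at 1.5-fold either way. The second comparison is shown for the *SM22-SmoM2* (red) and the control library (gray). *Fgf10* lies highest between the libraries at 3.03 and *Fgf18* lowest at -0.70, while *Spry2* lies at 0.96 between the libraries and at -1.07 between cells with and without *Ptch1* UMIs of the *SM22-SmoM2* library.

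The fibroblast-like cells were divided into 13 sub-clusters with neither the FGF pathway genes nor *Ptch1*, *Gli1* and *Gli2* among the clustering genes. The libraries hardly shared them. Only 3 sub-clusters held at least 50 cells of each library, and they are called here by their leading genes or markers, *Mmp3*/*Ctla2a*/*Mmp13* (248 control and 125 *SM22-SmoM2* cells), *Crabp1*/*Mmp11*/*Prss35* (258 and 108) and cycling cells (54 and 68). The others were largely of 1 library, and for these a type of cell and a library cannot be told apart.

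*Fgf10* was concentrated in 3 sub-clusters of the *SM22-SmoM2* library. The *Egfl6*/*Fam212a*/*Sox11* cells (3 control and 183 *SM22-SmoM2* cells) held 34.0% of the *Fgf10* UMIs of *SM22-SmoM2* fibroblast-like cells, and the *Penk*/*Pfn2*/*Tnmd* cells (9 and 171) held 28.7%. A further 19.1% came from 47 dermal papilla-like cells, all of the *SM22-SmoM2* library, in which 13 of 13 DP markers other than *Fgf10* were raised. These DP-like cells had the highest level of 5 of the 7 ligand and receptor genes, with 56.4 CPM of *Fgf10* (33.5 to 89.2), 84.7 CPM of *Fgf7*, 755.7 CPM of *Fgfr1*, 72.1 CPM of *Fgfr2* (45.7 to 108.2) and 18.8 CPM of *Fgfr3* (6 UMIs, 6.90 to 41.0). The intervals of *Fgf7*, *Fgfr2* and *Fgfr3* overlapped those of the next sub-cluster, which for both receptors was *Egfl6*/*Fam212a*/*Sox11* with 51.4 CPM (41.5 to 63.1) and 9.50 CPM (5.54 to 15.2). The share of all genes that were highest in the DP-like cells was not computed, so 5 of 7 has no background beside it. The median depth of these cells was 4636 UMIs, below that of every other sub-cluster. They had 12276 CPM of immediate early genes, the highest sum of the 13 sub-clusters.

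*Fgf7* ranged from 1.11 CPM in *Crabp1*/*Mmp11*/*Prss35* cells to the DP-like level, and the 54 control cells of the *C4b*/*Saa3*/*Gdf10* sub-cluster came close to the latter with 79.0 CPM (55.9 to 108.4). *Fgf18* was highest in *Tslp*/*Cxcl2*/*Ptx3* cells (21.7 CPM) and *Wnt2*/*Nov*/*Tnxb* cells (20.0 CPM), both almost entirely of the control library (111 of 111 and 167 of 174 cells). *Fgfr2* was high in *Egfl6*/*Fam212a*/*Sox11* (51.4 CPM) and *Penk*/*Pfn2*/*Tnmd* cells (32.7 CPM), which were also high in *Fgf10*. Of the 81 *SM22-SmoM2* cells with an *Fgf10* UMI, 29 also had an *Fgfr2* UMI, where the product of both shares gives 17.3 cells. The same counts were 34 against 37.2 cells for *Fgf7* and *Fgfr2* and 15 against 12.8 for *Fgf7* and *Fgf10*. For *Spry1* and *Spry2* they were 91 against 81.0. The product takes no account of the depth or the sub-cluster of a cell, so these counts are a description only.

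*Spry2* was highest in a sub-cluster of each library. The *Areg*/*Srxn1*/*Mt2* cells (7 control and 202 *SM22-SmoM2* cells) had 247.9 CPM and held 51.6% of the *Spry2* UMIs of *SM22-SmoM2* fibroblast-like cells. The *Tslp*/*Cxcl2*/*Ptx3* cells (111 control cells) had 214.5 CPM and held 48.2% of those of control fibroblast-like cells. Both were rich in immediate early genes, with 7717 and 8000 CPM, beside 2431 CPM in *Crabp1*/*Mmp11*/*Prss35* cells, which had 49.5 CPM of *Spry2*. The DP-like cells, with the highest sum of immediate early genes (12276 CPM), had 87.8 CPM of *Spry2*.

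*Spry1* had another pattern. The *Egfl6*/*Fam212a*/*Sox11* cells had 129.1 CPM of *Spry1*, and those of the *SM22-SmoM2* library held 53.8% of its *Spry1* UMIs in fibroblast-like cells. They also had the highest *Spry4* level (20.1 CPM), 148.7 CPM of *Spry2* and 8013 CPM of immediate early genes. The *Penk*/*Pfn2*/*Tnmd* cells were lowest in *Spry2* (13.3 CPM) and had 2923 CPM of immediate early genes. The *Sfrp5*/*Cldn1*/*Ccdc3* cells (35 control and 181 *SM22-SmoM2* cells) were nearly as low in *Spry2* (18.4 CPM) with 5738 CPM of immediate early genes. How the levels of *Spry2* and immediate early genes relate was not tested.

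**Figure D3:**
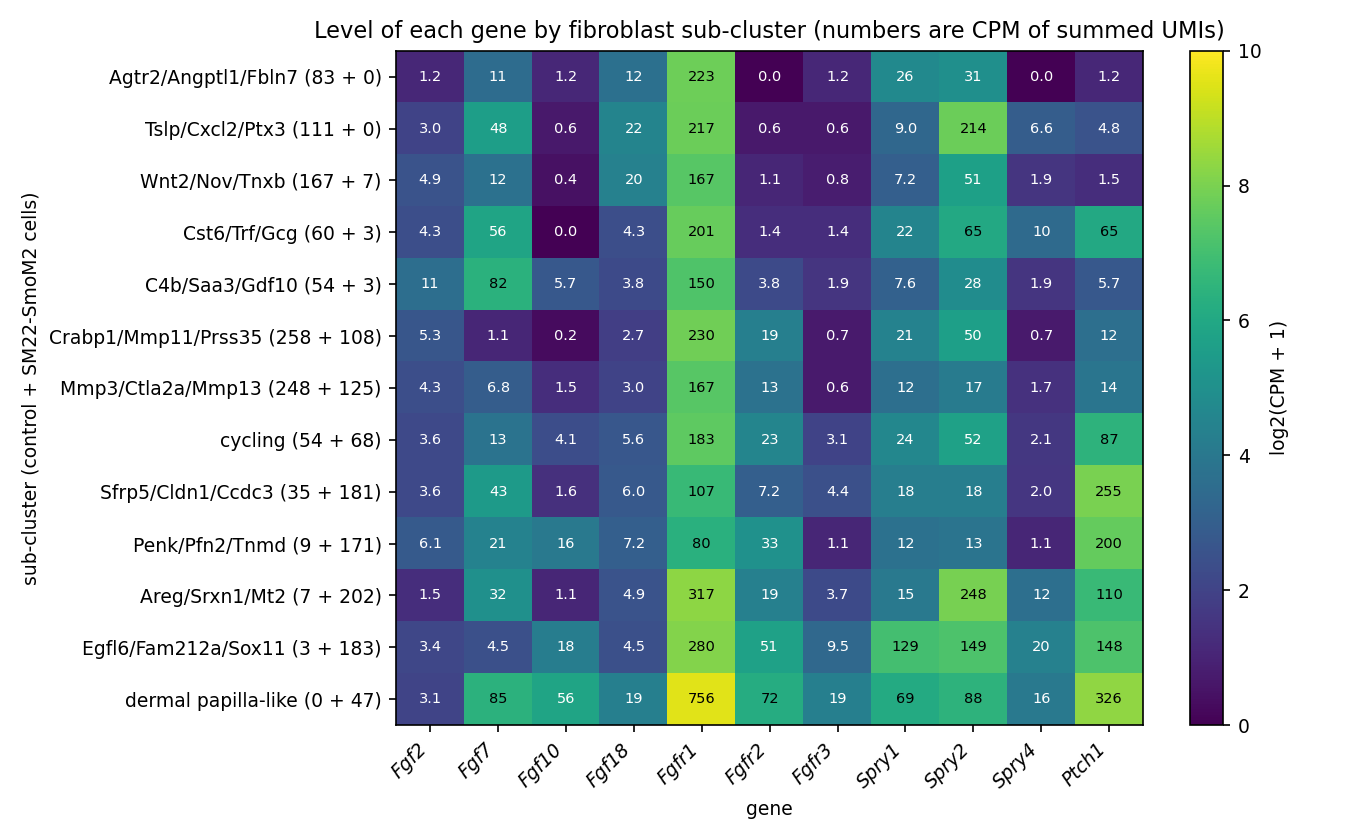
Level of each of the 10 genes (CPM) in the 13 fibroblast-like sub-clusters, with the number of cells of each library. *Fgf10* is highest in the DP-like cells (56.4 CPM), *Spry1* in the *Egfl6*/*Fam212a*/*Sox11* cells (129.1 CPM) and *Spry2* in the *Areg*/*Srxn1*/*Mt2* cells (247.9 CPM).

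In the 3 sub-clusters named above as shared, *Spry2* was higher in *SM22-SmoM2* cells each time. Its log2 ratio was 1.42 (0.75 to 2.11) in *Mmp3*/*Ctla2a*/*Mmp13* cells, 1.12 (0.51 to 1.77) in cycling cells and 2.34 (1.92 to 2.77) in *Crabp1*/*Mmp11*/*Prss35* cells. Immediate early genes were higher in *SM22-SmoM2* cells of all 3 as well, with 2306 against 2875 CPM, 2370 against 2981 CPM and 2108 against 3195 CPM in the same order, and their part in the *Spry2* values was not tested. In *Sfrp5*/*Cldn1*/*Ccdc3* cells, with 35 control cells, *Spry2* was lower in the *SM22-SmoM2* library, at 52.5 CPM (31.1 to 83.0) in control and 13.0 CPM (8.64 to 18.8) in *SM22-SmoM2* cells, while immediate early genes were at 4692 and 5904 CPM. *Fgfr1* was at 105 and 107 CPM in these cells. In the 3 sub-clusters shared by more cells, *Spry1* had log2 ratios of -0.36 (-1.33 to 0.53), 0.65 (-0.25 to 1.58) and 0.38 (-0.28 to 1.02) in the same order. *Fgfr2* did not keep its direction, with -3.20 (-5.52 to -1.58), 1.56 (0.57 to 2.65) and 0.06 (-0.67 to 0.75). *Fgfr1* was lower in *SM22-SmoM2* cells of all 3, at -0.24 (-0.47 to -0.02), -0.34 (-0.66 to -0.03) and -0.57 (-0.79 to -0.36), each inside the 1.5-fold limit. *Fgf10* had 1 UMI in *SM22-SmoM2* against 6 UMIs in control cells of the first, 8 against 0 in cycling cells and 1 against 0 in the last. Over the 3 sub-clusters together, *Spry2* was at 1.87, *Fgf10* at 1.68 (0.08 to 3.42), *Spry4* at 0.36 (-1.41 to 2.01), *Spry1* at 0.29 (-0.15 to 0.72) and *Fgfr2* at -0.12 (-0.58 to 0.34). Of the 3 Sprouty genes, *Spry2* alone was thus past the limit in these shared sub-clusters.

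Cells of the *SM22-SmoM2* library were then compared among themselves, since *Ptch1* UMIs were found in 640 of the 1098 fibroblast-like cells. Cells with *Ptch1* UMIs were slightly deeper, with a median of 11298 UMIs against 10218 UMIs. A cell without *Ptch1* UMIs may still express the gene at a level not detectable at this depth. Of the 10 genes, 9 had at least 50 UMIs, of which 4 were over 1.5-fold higher in cells with *Ptch1* UMIs and 1 was over 1.5-fold lower, beside 11.7% and 5.32% of all 10041 genes with as many UMIs. The median log2 ratio was 0.43 over the 9 genes and 0.13 over all genes.

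The higher genes were ligands and receptors. *Fgf7* had 27.7 CPM in cells with and 14.9 CPM in cells without *Ptch1* UMIs (log2 ratio 0.90, 0.51 to 1.3), and *Fgf10* had 9.42 and 4.55 CPM (1.05, 0.34 to 1.81). *Fgfr2* had 28.3 and 16.5 CPM (0.77, 0.40 to 1.16). *Fgfr3*, with 36 and 15 UMIs, was past the limit at 0.60, but its interval of -0.30 to 1.58 held equal levels. These differences were not found when each sub-cluster was given the same weight in both classes of cells, over the 4 sub-clusters that held 20 or more cells of each. The log2 ratios were then 0.043 for *Fgf7*, -0.30 for *Fgf10*, 0.28 for *Fgfr2* and -0.29 for *Fgfr3*. These sub-clusters held 525 of the 640 cells with and 212 of the 458 cells without *Ptch1* UMIs. The DP-like cells, which had the highest levels of these genes, were left out. So were the cycling cells, the *Mmp3*/*Ctla2a*/*Mmp13* cells (17 of 125 with *Ptch1* UMIs) and the *Crabp1*/*Mmp11*/*Prss35* cells (13 of 108). In the *SM22-SmoM2* library the last 2 had 0.646 and 0.747 CPM of *Fgf10* and 10.3 and 2.99 CPM of *Fgf7*. The separate effects of weighting and of leaving out cells were not tested. In cells thinned to 1500 UMIs, *Fgf10* was at -0.12 (-1.71 to 1.54) and *Fgfr2* at 0.19 (-0.62 to 1.03).

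*Spry2* differed in the other direction. It had 71.3 CPM (65.4 to 77.6) in cells with *Ptch1* UMIs and 149.5 CPM (138.8 to 160.8) in cells without, a log2 ratio of -1.07 (-1.23 to -0.91). Its ratio was -1.09 when weighted to the same sub-clusters and -1.06 (-1.49 to -0.63) in thinned cells. Its level was lower in each class of cells with more *Ptch1* UMIs, from 149.5 CPM at 0 to 105.9 CPM at 1, 63.2 CPM at 2 or 3 and 48.6 CPM (40.2 to 58.3) at 4 or more. These classes were not weighted by sub-cluster. Their depth differed, with medians of 10218 UMIs at 0 and 13713 UMIs at 4 or more. Immediate early genes were lowest in the cells without *Ptch1* UMIs, with 4513, 5901, 6079 and 5939 CPM.

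The lower *Spry2* level was found within the sub-clusters rich in *Spry2*. In *Areg*/*Srxn1*/*Mt2* cells it was 174.4 CPM in 116 cells with and 390.2 CPM in 86 cells without *Ptch1* UMIs (log2 ratio -1.16, -1.39 to -0.94). In *Egfl6*/*Fam212a*/*Sox11* cells it was 109.6 CPM in 123 cells and 251.7 CPM in 60 cells (-1.20, -1.56 to -0.84). In the *Sfrp5*/*Cldn1*/*Ccdc3* and *Penk*/*Pfn2*/*Tnmd* cells, which had few *Spry2* UMIs, the intervals of the ratio held 0 (-1.51 to 3.61 and -1.76 to 1.51). The other Sprouty genes differed less, with log2 ratios of 0.43 (0.13 to 0.73) for *Spry1* and -0.16 (-0.83 to 0.52) for *Spry4* (-0.86 for cells with at least 3 against 0 *Ptch1* UMIs) over all *SM22-SmoM2* fibroblast-like cells.

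The same split of the control library set 108 cells with against 981 cells without *Ptch1* UMIs. *Spry2* was again lower in cells with *Ptch1* UMIs, with 32.4 CPM against 54.6 CPM (log2 ratio -0.75, -1.21 to -0.32), and *Fgfr2* was again higher, with 16.6 against 9.40 CPM (0.82, 0.12 to 1.46). *Fgf7* was not higher there (-0.29). *Fgf18* was past the limit in the lower direction at -0.59, with an interval of -1.75 to 0.39 that held equal levels. Of the 10 genes, 7 had at least 50 UMIs, of which 1 was higher and 2 were lower past the limit. Among all 10257 genes with as many UMIs, 915 were higher and 894 lower. The *Tslp*/*Cxcl2*/*Ptx3* cells held 48.2% of the *Spry2* UMIs of control fibroblast-like cells but 4.65% of their *Ptch1* UMIs. Weighted values and values within sub-clusters were not computed for this split of the control library. Taken over all sub-clusters, *Spry2* was higher in the *SM22-SmoM2* library as a whole. It was lower in the cells of either library in which *Ptch1* was detected.

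**Figure D4:**
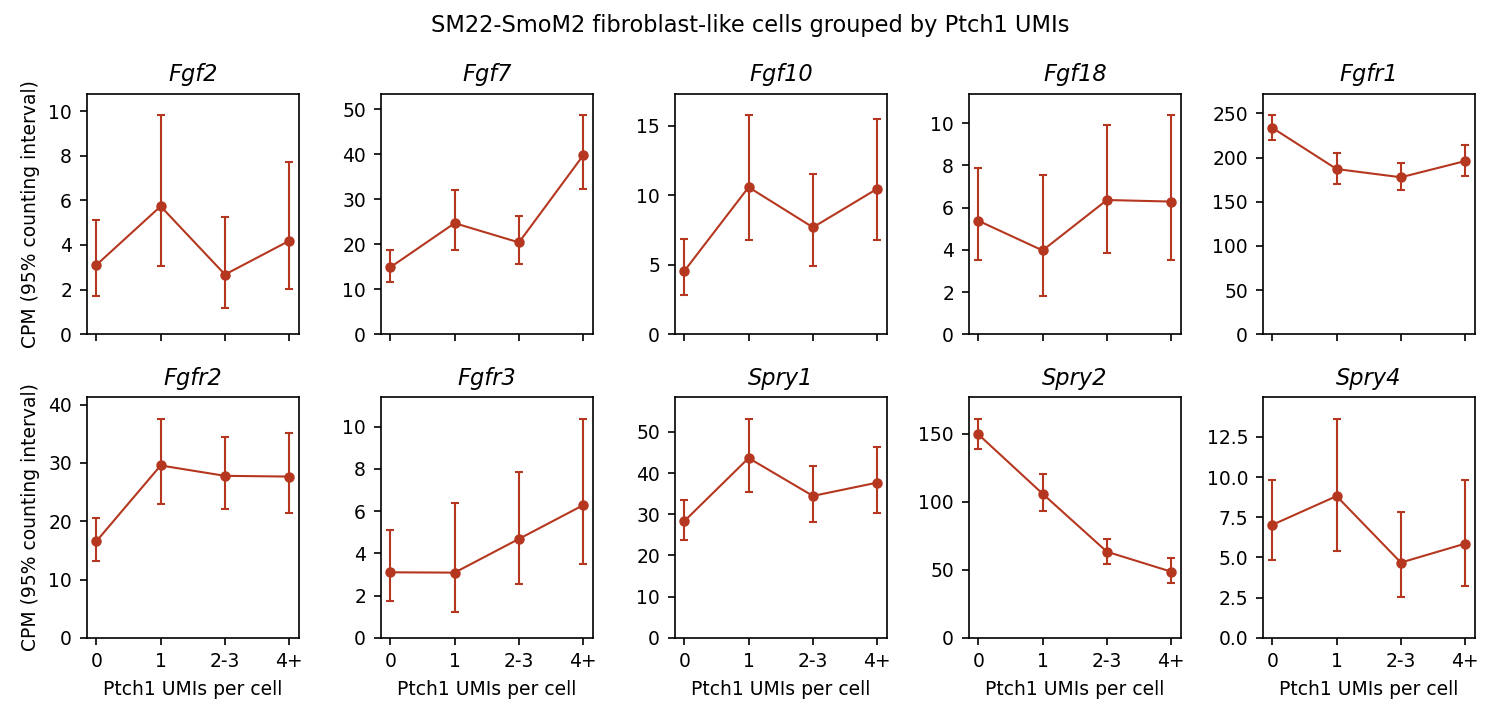
Levels (CPM, with 95% counting intervals) in *SM22-SmoM2* fibroblast-like cells by the number of *Ptch1* UMIs per cell. *Spry2* goes from 149.5 CPM in cells with no *Ptch1* UMI to 48.6 CPM in cells with 4 or more. The classes are not weighted by sub-cluster.

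The other genes of the FGF pathway did not share a direction. Of 43 further genes listed for the pathway, 22 had at least 50 UMIs in fibroblast-like cells, with a median log2 ratio of -0.14. Of these 22, 5 were over 1.5-fold higher and 6 over 1.5-fold lower in the *SM22-SmoM2* library. Of all genes with as many UMIs, 11.9% were higher and 12.3% lower past this limit. The higher genes were the ligand *Fgf5*, known to end hair growth, with 2.83 CPM in control cells and 13.8 CPM in *SM22-SmoM2* cells (log2 ratio 2.28, 1.78 to 2.82), *Fgf11* (0.59 from 24 and 32 UMIs, with an interval of -0.22 to 1.42 that held equal levels), the receptor-binding membrane proteins *Flrt2* (0.77) and *Flrt3* (1.15), and the MAP kinase phosphatase *Dusp4* (1.93, 1.53 to 2.35). The *Fgf5* ratio was 1.65 with 12 clusters of all cells, 3.15 with Leiden clusters, 2.99 in thinned cells and 1.48 within the 3 shared sub-clusters, where *Dusp4* was at 0.71 (-0.07 to 1.48). Of the *Fgf5* UMIs of *SM22-SmoM2* fibroblast-like cells, 55.8% were in the *Areg*/*Srxn1*/*Mt2* cells that also held most *Spry2*. Schwann-like cells had far more *Fgf5* than fibroblast-like cells, with 408.9 and 306.7 CPM.

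The lower genes included the 3 ETS factors commonly used as FGF target genes. *Etv4* had 98 UMIs in control and 9 UMIs in *SM22-SmoM2* fibroblast-like cells (log2 ratio -3.27, -4.44 to -2.28), *Etv1* had a log2 ratio of -1.16 (-1.80 to -0.56) and *Etv5* of -0.88 (-1.50 to -0.29). *Dusp6*, another target gene and inhibitor of the cascade, was at 0.10 (-0.12 to 0.32). Much of the control *Etv4* signal came from few cells, since 51.0% of its UMIs were in the 60 control cells of the *Cst6*/*Trf*/*Gcg* sub-cluster, which had 74.2 CPM. In the 3 shared sub-clusters, *Etv4* counts were low. *SM22-SmoM2* against control cells had 0 against 7 UMIs (*Mmp3*/*Ctla2a*/*Mmp13*), 2 against 6 (cycling) and 0 against 6 (*Crabp1*/*Mmp11*/*Prss35*). The 63 *Cst6*/*Trf*/*Gcg* cells of both libraries also had 195.3 CPM of *Dusp6* (135 UMIs). They held 19.5% of the *Dusp6* UMIs of all fibroblast-like cells, and the *Dusp6* ratio without them was not computed. The heparan sulfate carriers *Sdc2* (-1.76), *Sdc3* (-0.82) and *Sdc4* (-0.97), which act as co-receptors, were lower as well. Over all fibroblast-like cells, the 3 Sprouty genes and *Dusp4* were thus higher in the *SM22-SmoM2* library. *Etv1*, *Etv4* and *Etv5* were lower there, and *Dusp6* was within the limit. Of the 6 further feedback inhibitors with at least 50 UMIs, *Dusp4* was the 1 that was higher. The other 5, *Dusp6* among them, were within the limit.

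**Figure D5:**
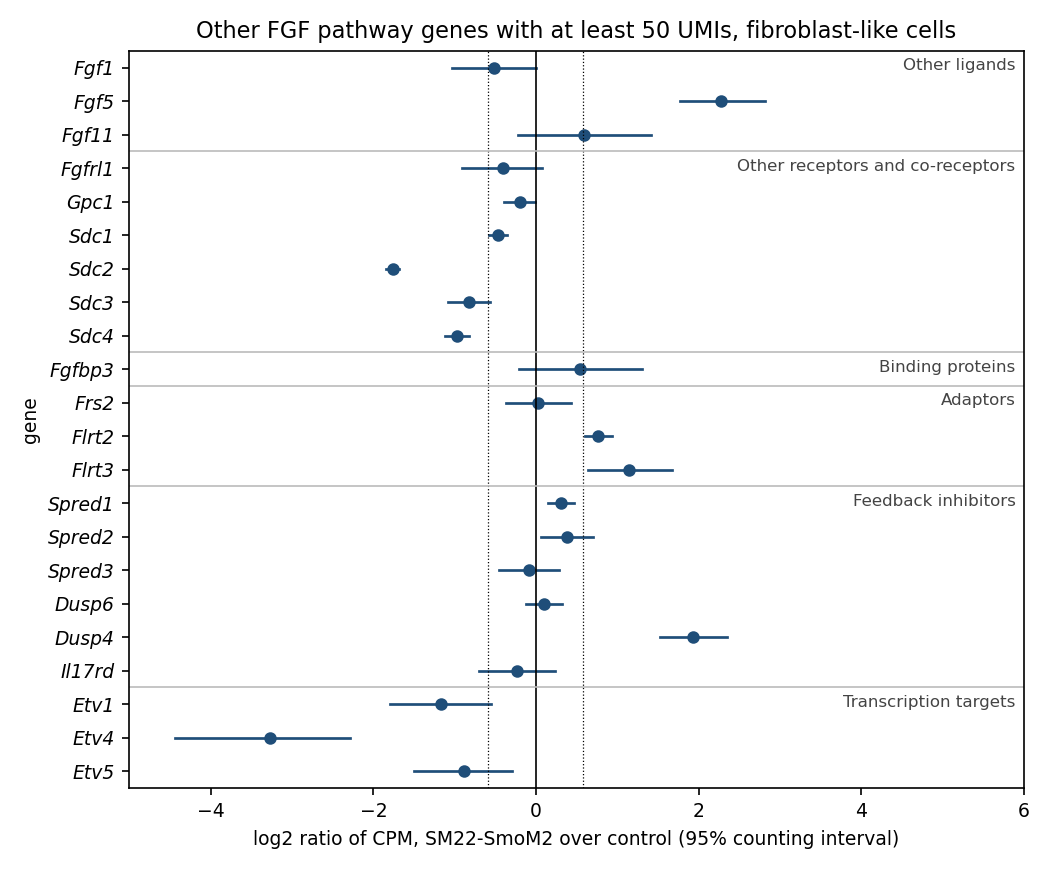
Log2 ratio of CPM, *SM22-SmoM2* over control, for the 22 further genes of the FGF pathway with at least 50 UMIs in fibroblast-like cells, with 95% counting intervals and dotted lines at 1.5-fold either way. *Fgf5* (2.28) lies at the upper end and *Etv4* (-3.27) at the lower end.

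In *SM22-SmoM2* cells split by *Ptch1* UMIs, 17 of the 43 genes had at least 50 UMIs, of which *Fgf5* (log2 ratio 2.44) and *Fgf1* (1.15) were over 1.5-fold higher and the adaptor *Frs2* (-0.66) over 1.5-fold lower in cells with *Ptch1* UMIs. These 2 of 17 and 1 of 17 genes are shares near the 11.7% and 5.32% of all genes. The *Fgf5* ratio was 1.60 (-0.012 to 3.64) in thinned cells. *Dusp6* was at 0.19. *Etv4* and *Etv5* had too few UMIs in these cells (9 and 36). In the same split of the control library, 18 of the 43 genes had at least 50 UMIs. Past the limit, 7 were higher and 2 lower in cells with *Ptch1* UMIs, beside 915 and 894 of all 10257 genes. *Etv1* (1.61), *Etv4* (1.34) and *Dusp6* (1.13) were among the higher genes there, and *Etv5* was at 0.25. These control values were not weighted by sub-cluster.

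Over the 20 clusters of all cells, the genes whose levels resembled each member most were listed for the 8 members with at least 200 UMIs, by Pearson's r of log2(CPM + 10). The clusters share the same libraries and differ in depth, so r is a description only. *Spry2* was closest to *Klf9* (0.93), *Igf2bp2* and *Phlda1*, and *Spry4* to *Mef2a* (0.89), *Mprip* and *Col4a1*. *Spry1* was closest to *Ubr1* (0.83), and *Spry4* came next (0.82). *Fgfr1* was closest to *Usp13* (0.89), followed by *Smo* (0.87) and *Abhd2*, and *Fgfr2* to *Bcl11b* (0.92), *Ralgps2* and *Flywch2*. Of the ligands, *Fgf2* was closest to *Cadm2* (0.90), *Fgf7* to *Aldh1a3* (0.88) and *Fgf18* to *Scara3* (0.83).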

How the data were processed

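The authors counted UMIs per gene and cell with Cell Ranger on mm10/GRCm38 from 10x 3′ v2 libraries, and deposited raw counts without normalization. The Cell Ranger version, the annotation and the strand counted are not given in the sources used here. Separation in EDTA took 1 h per the labels, and the paper gives a shorter time. The barcode list covers the whole kit, so barcodes shared between libraries could not be counted.

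Cells with under 200 genes or over 10% mitochondrial UMIs were left out (22 control and 10 *SM22-SmoM2* cells). The remaining cells had 30103855 and 17814222 UMIs. On log counts scaled to 10000 per cell, k-means with 50 starts was run in 20 principal components of the 2000 most variable genes (K = 20, and 15 for fibroblasts) with scanpy 1.11.5 and scikit-learn 1.9.0. The FGF pathway genes and *Ptch1*, *Gli1* and *Gli2* were not among the clustering genes. A cluster took the lineage whose markers were highest when at least 3 of them had 10 CPM and 1.5 times the median cluster. A cluster of 93 control and 44 *SM22-SmoM2* cells with mixed mural and endothelial markers stayed unnamed, and 15 and 3 fibroblast-like cells with markers of another lineage were left out. No doublets were removed in the main analysis. Scrublet marked 5 control and 11 *SM22-SmoM2* cells, and 143 and 45 cells carried *Xist* together with Y-linked UMIs.

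UMIs were summed per class and library. Intervals are exact Poisson for CPM and exact conditional for ratios (scipy 1.17.1). A difference was counted past 1.5-fold with at least 50 UMIs over both sides. Named were the 10 members, pathway genes past 1.5-fold, *Dusp6*, *Etv4* and *Etv5*, and the 3 genes closest to each member. The 10 genes and all lists were chosen with earlier results of these data known, and the naming rules were fixed with the clusters in view. On simulated counts for the comparison of fibroblasts, the intervals behaved as intended. These counts had counting error alone, without spread between cells or mice, so they check the calculation and not the fit of the intervals to these data. Alternatives were other mitochondrial filters, doublet removal, other cluster numbers, Leiden clusters, thinning to 1500 UMIs, per-cell means, male cells alone, TMM factors (edgeR 4.0.16), other thresholds, and leaving out cell groups.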

Additional observations from a re-analysis of the deposited data

Results flagged for a closer look

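*Spry1* and *Spry4* differed between the libraries in opposite directions in 2 lineages. In Schwann-like cells *Spry1* had 34.9 CPM in control cells and 22.3 CPM in the *SM22-SmoM2* library (log2 ratio -0.65, -1.16 to -0.16), while it was 1.27 in fibroblast-like cells. *Spry4* had 13.8 and 6.44 CPM in Schwann-like cells (65 and 13 UMIs), a log2 ratio of -1.10 (-2.09 to -0.23), while it was 1.36 in fibroblast-like cells. In the fibroblast-like sub-clusters that both libraries shared, neither gene was past the 1.5-fold limit, as given above. The difference between the lineages was not tested, since each lineage has 1 library per genotype. The immediate early genes moved in the same directions, with log2 ratios of -0.29 in Schwann-like and 0.75 in fibroblast-like cells, and *Spry2* did not, with 0.31 (0.18 to 0.43) and 0.96. Their part in the *Spry1* and *Spry4* values was not tested.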

How the results depend on the processing

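With 1 library per genotype, differences between mice, litters, sorts and libraries cannot be told apart from the genotype, and low counts limit *Fgf10*, *Fgfr3* and *Spry4* in control cells (13, 13 and 36 UMIs). No paired analysis was possible because each genotype has 1 library. Of 286 values recomputed for counts, sums, shares and highest levels, 221 stayed within the counting interval of the reported value (counts within 1.5 times), as did 380 of 419 for single genes. Settings on sub-clusters shared by both libraries, the left-out DP-like cells (between libraries) and the weighted make-up were chosen after seeing the data. The shares of all genes past the limit were not computed for the alternative settings, so the counts below stand without them.

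Between libraries, cells thinned to 1500 UMIs gave 2 members higher and 0 lower (5 members then had 50 UMIs), 1 other pathway gene higher and 3 lower, log2 ratios of 0.22 for receptors and 0.79 for Sprouty genes, and -0.012 for *Spry4*, which reversed. Means of per-cell CPM gave 0 members lower, 0.23 for receptors and 0.90 for Sprouty genes. A 2-fold limit gave 0 members lower and 3 other genes in each direction. Within the 3 shared sub-clusters, 2 members (*Spry2* and *Fgf7*) were higher and 0 lower, and 1 other gene was higher and 1 lower. Receptors were then at -0.38, Sprouty genes at 1.32 and *Fgfr2* reversed to -0.12. Without DP-like cells, receptors were at 0.032.

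Between cells with and without *Ptch1* UMIs, thinning gave 0 members higher (4 then had 50 UMIs), 1 other gene higher and 0 lower, 0.086 for ligands and -0.12 for *Fgf10*, which reversed. A 2-fold limit gave 1 member higher and 0 other genes lower. At least 3 *Ptch1* UMIs against 0 gave 2 members higher, 1 other gene higher, 2 lower and -0.96 for Sprouty genes. The weighted make-up gave 0 members higher and 0 other genes lower, and reversed ligands (-0.067), *Fgf10* (-0.30) and *Fgfr3* (-0.29). TMM factors gave 3 other genes lower and -0.32 for receptors. Male cells alone gave 1 other gene higher and 2 lower, a 20-UMI minimum 4 higher, and K = 12, per-cell means, leaving out cycling cells and leaving out DP-like cells 2 lower each.

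The share of UMIs in fibroblast-like cells moved most with thinning, to 50.8% for ligands, 64.4% for receptors and 14.9% for Sprouty genes in control and 75.7% for ligands and 42.3% for Sprouty genes in the *SM22-SmoM2* library. Per-cell means gave 51.5%, 70.8% and 16.6% in control and 78.8%, 90.4% and 43.3% in the *SM22-SmoM2* library, in the same order, and male cells alone 74.5%, 81.4% and 27.4%, and 91.3%, 94.5% and 66.3%. Control receptors were at 78.2% without marked doublets and at 73.8% with Leiden clusters (91.3% in the *SM22-SmoM2* library), and control Sprouty genes at 23.2% with K = 12 and with a 5% mitochondrial limit. The highest *Spry1* level was 106.4 CPM with K = 10 for sub-clusters, and the highest *Spry2* level 221.4 CPM with Leiden sub-clusters. The cause of these changes was not tested.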
